A study of Homo sapiens with 6 samples.

Results

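Plasminogen activators, matrix metalloproteases and their inhibitors were examined in ES-2 cells, an established human ovarian clear cell carcinoma line, after transfection with a mimic of the microRNA mir-22. The group held 9 genes: the urokinase gene PLAU and its receptor gene PLAUR, the metalloprotease genes MMP1, MMP14, ADAM9 and ADAMTS1, and the inhibitor genes TIMP1, TIMP2 and TIMP3. Its members were all 12 probes annotated to one of these symbols, out of 48803 probes on the array. PLAUR had 3 probes, TIMP2 had 2 and each other gene had 1. The cells were ES-2 in every group, transfected either with hsa-mir-22 mimic at 65 nM or with mimic negative control #2, a control duplex modelled on worm microRNAs with little identity to human ones, and all were harvested after 48 hours. The labels give no dose for the control mimic. Each group had 3 arrays called biological replicates. Nothing says that these came from separate cultures, and the p-values therefore reflect only how far these arrays differ, which may be technical. Every array comes from 1 cell line, and the level of mir-22 reached in the cells was not measured here.

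Urokinase cuts plasminogen to plasmin, a broad protease of the pericellular space, and the urokinase receptor holds that reaction at the cell surface. Plasmin activates secreted metalloproteases such as the collagenase MMP1, membrane-bound MMP14 activates others such as MMP2, and ADAM and ADAMTS enzymes shed surface proteins or cut proteoglycans. The TIMP proteins bind the active site of metalloproteases and hold them in check, and the balance of these activities governs how tumour cells cross matrix. A microRNA pairs through its seed, bases 2 to 8, with messenger RNAs and lowers them.

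The labels name hsa-mir-22 without an arm, so the RefSeq mature sequences of both arms on GRCh38.p14 are shown, because they define the treatment. The 3p arm lies at chr17:1713914-1713935 and the 5p arm at chr17:1713952-1713973, both on the minus strand, and capitals mark the seed.
hsa-miR-22-3p: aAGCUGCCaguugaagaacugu
hsa-miR-22-5p: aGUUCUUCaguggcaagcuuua

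Each array detected 17465 to 19244 of its probes (35.8% to 39.4%), where a probe counts as detected at a detection p under 0.01. Control mimic replicate 3 stood apart: its log2 values correlated with those of the other controls at 0.980 and 0.981, compared with 0.997 between controls 1 and 2 and 0.995 to 0.998 among the mir-22 arrays. Relative to controls 1 and 2 averaged, 685 kept probes were lower on it by over 1 log2 unit and 5 were higher by as much. The mesenchymal genes VIM, CDH2, FN1 and ZEB1 were all detected on all 6 arrays. By the brightest probe, CDH2 was higher on every mir-22 array (log2 fold change 0.65, adjusted p = 0.0596 in limma). FN1 was lower on every mir-22 array (-0.17), and for VIM and ZEB1 the groups overlapped. The epithelial keratin genes KRT7, KRT8 and KRT18 were also detected on all 6 arrays, but KRT19, EPCAM and CDH1 did not pass the detection filter. Of the clear cell carcinoma markers, NAPSA, PAX8 and GPX3 did not pass either, so the labelled histology was not borne out by these markers. Summed normalised intensity separated the groups for 3 marker lists: 2 of 6 clear cell markers (1100 to 1137 on the mir-22 arrays, 1268 to 1424 on the control arrays), 2 of 4 endothelial markers (676 to 768 against 815 to 1004) and 3 of 6 fibroblast markers (635 to 717 against 614 to 631). For comparison, the groups did not overlap for 31.3% of all kept probes. The clear cell sum came almost wholly from ARID1A (mean log2 10.09 on the mir-22 arrays, 10.34 on the controls), with ANXA4 at 4.56 and 4.61. ANXA4 was detected on only 3 of 6 arrays and its groups overlapped, so that separation is the one of ARID1A alone. The endothelial sum came almost wholly from CDH5 (9.38 and 9.76), with PECAM1 at 5.46 and 5.35. Within the fibroblast sum the groups overlapped for each gene, PDGFRA (8.37 and 8.11), THY1 (6.87 and 6.71) and FAP (7.77 and 7.88). The endothelial markers VWF and KDR and the fibroblast markers PDGFRB, DCN and LUM did not pass the detection filter. None of the measured markers was called in limma, and the part of these shifts in the results was not tested.

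All 12 member probes were detected on all 6 arrays, so none entered through one group alone. By the brightest probe of each gene, 4 of the 9 genes rose with the mir-22 mimic, namely PLAU, ADAM9, ADAMTS1 and TIMP3, and none fell (limma, adjusted p under 0.05). Of all 11133 measured genes, 7.61% were called, 3.47% higher and 4.14% lower. Of all 18732 kept probes, 6.46% were called, 3.04% higher and 3.42% lower. At an unadjusted p under 0.05, 5 members were higher and 1, MMP14, was lower in limma, where 11.4% of all measured genes were higher and 14.2% lower. In the linear model without shared variance, PLAU alone was called. The members' median log2 fold change was 0.29, against -0.02 over all measured genes. The genes were grouped with earlier results of these data known, so this share is a description. In the text below, ± after a log2 fold change is limma's moderated standard error with 3 arrays per group, and levels are log2 intensities after background correction and quantile normalisation.

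**Figure D1:**
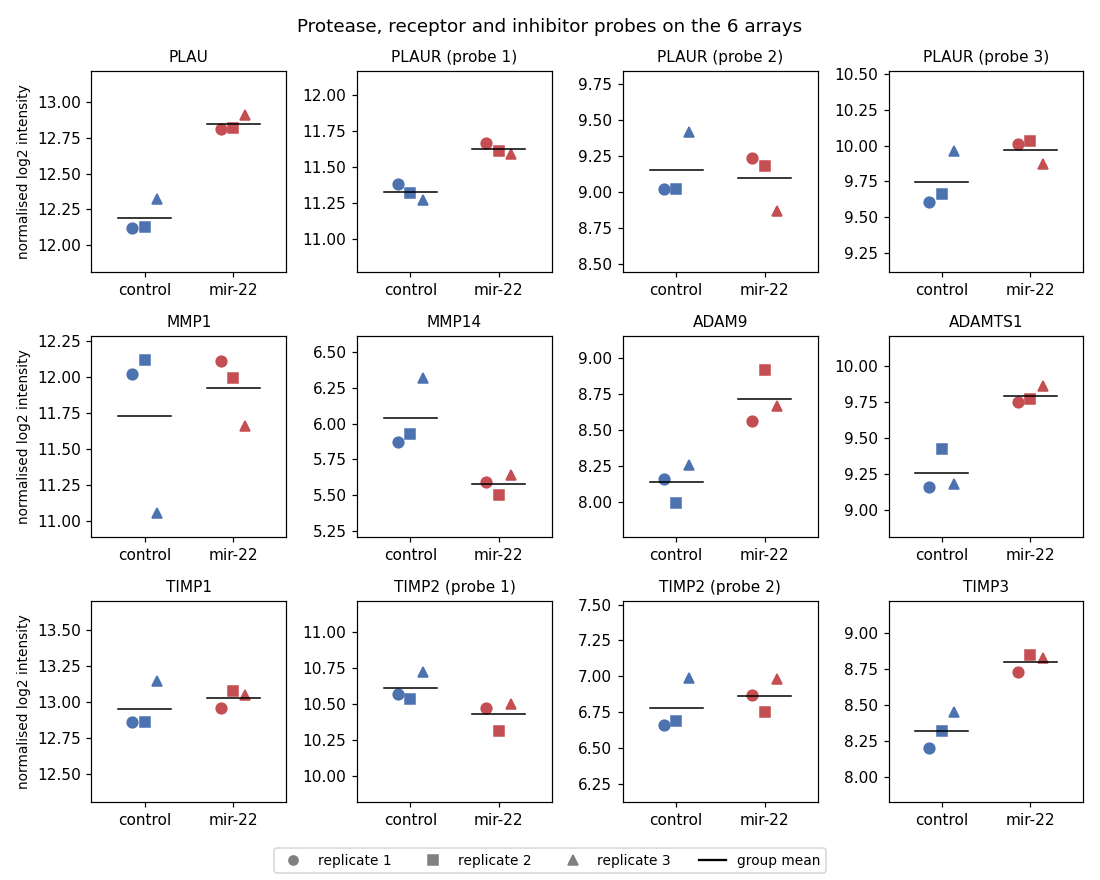
Normalised log2 intensity (vertical axis, the same span of 1.4 log2 units in every panel) of each of the 12 member probes on the 3 control mimic and 3 mir-22 mimic arrays, with marker shape for the replicate number and a line at the group mean. PLAU, ADAM9, ADAMTS1 and TIMP3 are higher on every mir-22 array, MMP14 is lower on every mir-22 array, and MMP1 is low on control replicate 3 at 11.05.

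PLAU, which encodes urokinase, showed the largest change among the 9 genes. Log2 intensity was 12.81, 12.82 and 12.91 on the mir-22 arrays and 12.12, 12.13 and 12.32 on the control arrays. The mir-22 arrays lay close together and all above the highest control, which was replicate 3. The raw bead intensities, before any normalisation, were 8278, 8148 and 7191 against 4358, 4408 and 4432, so the separation was already present in the unprocessed values. Raw values also carry the brightness of each array, whose upper quartile was 96.2, 94.9 and 80.0 on the mir-22 arrays against 85.6, 85.2 and 78.1. Raw TIMP1 did not overlap either (lowest mir-22 array 7924, highest control 7901), though its normalised groups did. PLAU rose by a log2 fold change of 0.65 ± 0.10, or 1.57-fold, with an adjusted p of 0.0117 in limma. Leaving out mir-22 replicate 1, 2 or 3 ended the call (adjusted p = 0.0730, 0.0754 and 0.0675 in limma), as did leaving out control replicate 2 (0.0501), while the log2 fold change stayed between 0.62 and 0.71 over all 6 omissions.

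The RefSeq promoter table (GRCh38.p14, 250 bases before to 50 after a start) holds 6 starts for PLAU, PLAUR, MMP14, TIMP1 and TIMP3. Their bases were searched on both strands for the AP-1 element TGANTCA, the GC box GGGCGG and the TATA element TATAAA, because these factors are known regulators of protease genes; no match in the 6 overlapped one of another motif. Of all 35116 promoters of this length, 7.71% hold the first, 45.0% the second and 11.5% the third. PLAU has 2 listed starts, and the downstream one, at chr10:73910882-73911181 on the plus strand, held 3 GC boxes beginning 66, 51 and 40 bases before the start (positions -66, -51 and -40), shown in capitals. The upstream start held none of the 3 motifs.
PLAU promoter: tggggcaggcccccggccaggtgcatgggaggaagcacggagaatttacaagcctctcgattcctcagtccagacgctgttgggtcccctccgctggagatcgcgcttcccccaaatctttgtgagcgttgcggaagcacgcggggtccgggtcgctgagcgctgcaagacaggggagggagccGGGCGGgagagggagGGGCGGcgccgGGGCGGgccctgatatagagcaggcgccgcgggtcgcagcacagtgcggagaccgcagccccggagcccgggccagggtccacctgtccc

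PLAUR encodes the surface receptor that anchors urokinase. Its brightest probe, ILMN_2374340, read 11.67, 11.61 and 11.59 on the mir-22 arrays and 11.38, 11.32 and 11.27 on the control arrays. These groups did not overlap, and the log2 fold change was 0.29 ± 0.09, which did not pass (adjusted p = 0.0986 in limma). It did pass with no background correction (0.0467), no detection filter (0.0400) or a trend and robust prior (0.0491), and the mean over the 3 probes was 0.16. Groups did not overlap for 7 of 12 member probes, 5 higher and 2 lower, compared with 31.3% of all kept probes (13.7% higher, 17.5% lower).

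The other PLAUR probes gave smaller values. ILMN_2408543 read 10.01, 10.03 and 9.87 against 9.61, 9.66 and 9.96, a log2 fold change of 0.23 ± 0.12. ILMN_1691508 read 9.24, 9.18 and 8.87 against 9.02, 9.02 and 9.42, a log2 fold change of -0.06 ± 0.15. Both sets of arrays overlapped, with replicate 3 lying apart from replicates 1 and 2 in each group on ILMN_1691508. Without control replicate 3 the log2 fold change of ILMN_2408543 was 0.34 and passed (adjusted p = 0.0398 in limma), while that of ILMN_1691508 turned to 0.07. Within arrays, the brightest probe gained 0.35 log2 units on ILMN_1691508 with the mir-22 mimic, with no overlap between groups (two-sided exact permutation p = 0.1, the smallest that 3 arrays against 3 can give). The PLAUR promoter at chr19:43670120-43670419, minus strand, was the only one of the 6 with an exact match to TGANTCA, at position -186 in capitals.
PLAUR promoter: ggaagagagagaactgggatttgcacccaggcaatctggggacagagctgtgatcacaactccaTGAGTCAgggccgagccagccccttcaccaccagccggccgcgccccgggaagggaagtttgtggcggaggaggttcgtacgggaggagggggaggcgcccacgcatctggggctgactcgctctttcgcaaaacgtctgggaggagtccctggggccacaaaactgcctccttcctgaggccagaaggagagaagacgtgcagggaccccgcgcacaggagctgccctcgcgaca

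**Figure D2:**
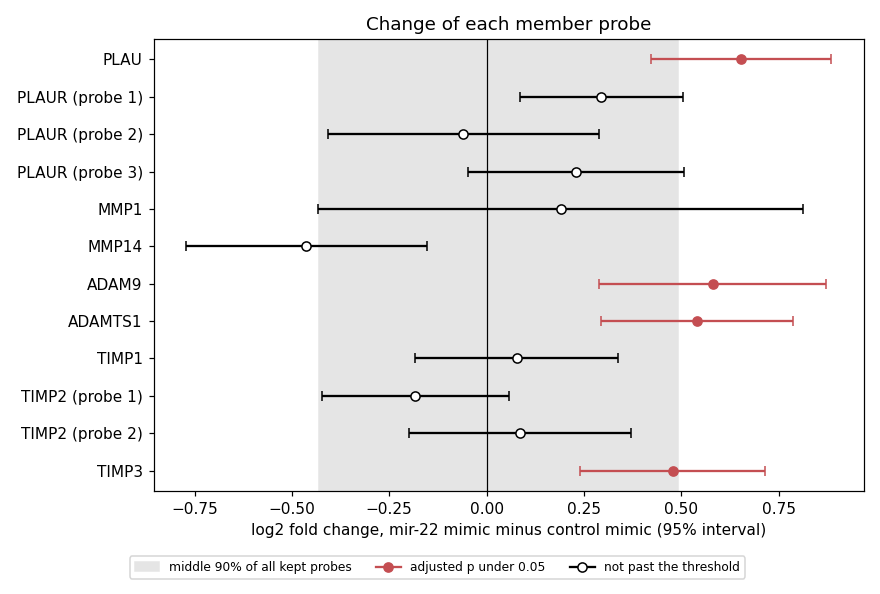
Log2 fold change, mir-22 mimic minus control mimic (horizontal axis), of the 12 member probes with its 95% interval from limma; filled red points passed the threshold and the grey band holds the middle 90% of all 18732 kept probes, from -0.43 to 0.49. PLAU (0.65), ADAM9 (0.58) and ADAMTS1 (0.54) lie above the band, TIMP3 (0.48) lies just inside it, and MMP14 (-0.46) lies just below it. For PLAUR, probes 1, 2 and 3 are ILMN_2374340, ILMN_1691508 and ILMN_2408543; for TIMP2, probe 1 is the brighter.

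The secreted collagenase gene MMP1 did not pass the test. It read 12.11, 11.99 and 11.66 on the mir-22 arrays and 12.02, 12.12 and 11.05 on the control arrays. Control replicate 3 differed from controls 1 and 2 averaged by -1.02 log2 units, and mir-22 replicate 3 was the lowest of its group. The beads of this probe also disagreed most on those arrays, with a standard error over beads of 17.1% of the intensity on control replicate 3 and 12.2% on mir-22 replicate 3, against 3.79% to 5.51% on the others. The log2 fold change was 0.19 ± 0.27 with a 95% interval of -0.43 to 0.81 (adjusted p = 0.717 in limma). Without control replicate 3 it was -0.15, so neither its direction nor its size was settled by these arrays.

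MMP14, the membrane-anchored metalloprotease that activates others at the cell surface, was the only member besides TIMP2 with a lower value at its brightest probe. It was dim, at 5.59, 5.50 and 5.64 on the mir-22 arrays and 5.87, 5.93 and 6.32 on the control arrays. Every mir-22 array lay below every control array, the highest being control replicate 3. In raw intensity the values were 81.0, 76.2 and 70.3 against 82.7, 84.9 and 93.2, so the groups also stayed apart there, by a narrow margin. The log2 fold change was -0.46 ± 0.13, with an adjusted p of 0.0842 in limma. Without control replicate 3 the log2 fold change was smaller at -0.33 yet passed the threshold (adjusted p = 0.0392 in limma).

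ADAM9 encodes a membrane-bound metalloprotease that sheds surface proteins. It read 8.56, 8.92 and 8.67 on the mir-22 arrays and 8.16, 7.99 and 8.26 on the control arrays. The groups did not overlap, and mir-22 replicate 2 was the highest. The log2 fold change was 0.58 ± 0.13, or 1.50-fold (adjusted p = 0.0364 in limma). The call held only without control replicate 3 (0.64, adjusted p = 0.00955); adjusted p was 0.0944, 0.153 and 0.116 without mir-22 replicates 1, 2 and 3, and 0.0809 and 0.109 without control replicates 1 and 2.

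ADAMTS1 encodes a secreted protease that cuts proteoglycans such as versican and aggrecan. It read 9.75, 9.77 and 9.86 on the mir-22 arrays and 9.16, 9.42 and 9.18 on the control arrays. The mir-22 arrays were tightly grouped, and control replicate 2 came nearest to them. Its log2 fold change was 0.54 ± 0.11, or 1.46-fold (adjusted p = 0.0264 in limma). The call was lost without mir-22 replicate 1, 2 or 3 (adjusted p = 0.111, 0.124 and 0.114 in limma) or control replicate 1 (0.0766), and held without control replicate 2 (0.0413) or 3 (0.0134).

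The TIMP genes encode small secreted inhibitors, and only TIMP3 passed the test. TIMP3, whose protein is bound to the matrix and also inhibits several ADAM and ADAMTS enzymes, read 8.73, 8.85 and 8.83 on the mir-22 arrays and 8.20, 8.32 and 8.45 on the control arrays. All mir-22 arrays lay above all control arrays. Its log2 fold change was 0.48 ± 0.10, or 1.39-fold (adjusted p = 0.0352 in limma). The call held without control replicate 3 (0.54, adjusted p = 0.00579) and was lost without mir-22 replicate 1, 2 or 3 (0.118, 0.162 and 0.130) or control replicate 1 or 2 (0.0949 and 0.0999). Its promoter at chr22:32801455-32801754, plus strand, held 5 GC boxes on either strand, in capitals, and neither other motif. The MMP14 promoter held 1 GC box and the TIMP1 promoter 2.
TIMP3 promoter: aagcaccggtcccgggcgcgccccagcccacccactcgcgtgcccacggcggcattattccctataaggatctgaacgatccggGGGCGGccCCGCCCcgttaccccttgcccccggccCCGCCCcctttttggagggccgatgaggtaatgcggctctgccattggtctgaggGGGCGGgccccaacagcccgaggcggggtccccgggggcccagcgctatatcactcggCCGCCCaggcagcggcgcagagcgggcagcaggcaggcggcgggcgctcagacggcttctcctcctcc

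TIMP1, which encodes a soluble inhibitor, read 12.96, 13.08 and 13.05 on the mir-22 arrays and 12.86, 12.86 and 13.15 on the control arrays. Control replicate 3 was the highest of all, so the groups overlapped. The log2 fold change was 0.08 ± 0.11, with a 95% interval of -0.18 to 0.34. TIMP2, whose protein also takes part in the activation of pro-MMP2 by MMP14, read 10.47, 10.31 and 10.50 against 10.57, 10.53 and 10.72 at its brighter probe. These groups did not overlap, but the log2 fold change of -0.18 ± 0.10 did not pass (adjusted p = 0.340 in limma). The dimmer TIMP2 probe read 6.87, 6.75 and 6.98 against 6.66, 6.69 and 6.99 and had the opposite sign, 0.09 ± 0.12.

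**Figure D3:**
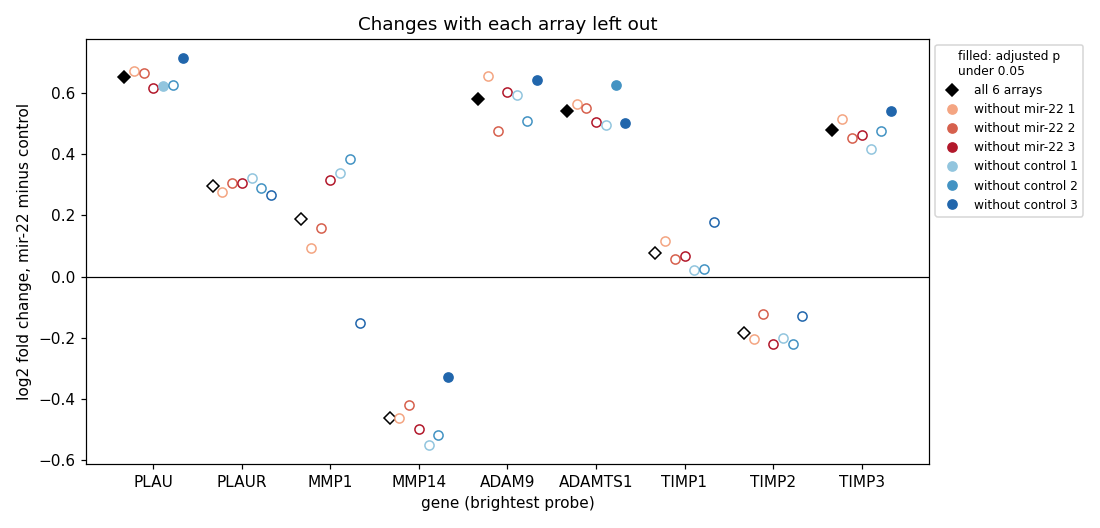
Log2 fold change, mir-22 mimic minus control mimic (vertical axis), of the brightest probe of each gene with all 6 arrays (diamond) and with each array left out in turn (circles); filled symbols passed an adjusted p of 0.05. PLAU stays between 0.62 and 0.71 and ADAM9 between 0.48 and 0.66, while MMP1 runs from -0.15 without control replicate 3 to 0.38.

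Whether members changed by different amounts was examined from the within-array difference of their log2 values, in 10 pairs chosen after the values were seen. A two-sided exact permutation test over the 6 arrays cannot go below p = 0.1 here, so none of these differences could pass a threshold of 0.05. PLAU gained 0.36 log2 units on PLAUR with no overlap between groups (exact p = 0.1, 0.167 adjusted over the 10 pairs). TIMP3 gained 0.66 log2 units on TIMP2 and 0.40 on TIMP1, in both cases with no overlap between groups and the same p. The gain on TIMP2 was taken at its brighter probe, which was at -0.18, while its dimmer probe was at 0.09. MMP14 lost ground to TIMP2 by 0.28 log2 units (difference of changes -0.28), again without overlap, but the pair of TIMP2 probes differed by a similar -0.27 without overlap (both exact p = 0.1). MMP14 against MMP1 gave -0.65 with overlapping groups (exact p = 0.3), and PLAUR probe ILMN_2374340 against ILMN_2408543 gave 0.06 (exact p = 0.9). ADAM9 and ADAMTS1 changed by nearly the same amount as the inhibitor gene TIMP3. The differences were 0.10 and 0.06 log2 units with overlapping groups (exact p = 0.4 and 0.8), which does not show that the changes were equal.

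Other genes of the same pathways were listed by function, and of 143 listed genes 82 were measured. Of these, 4 were called higher and 3 lower (limma), and their median log2 fold change was -0.04, near that of all genes. Among 10 measured genes of the plasminogen system none was called in limma, 1 being higher and 1 lower at an unadjusted p under 0.05. That higher one was PLAT, the tissue-type plasminogen activator gene, at 12.54, 12.58 and 12.52 against 12.11, 12.09 and 12.35. Its groups did not overlap and its log2 fold change was 0.36 ± 0.11 (adjusted p = 0.0855 in limma), or 0.44 without control replicate 3, where it passed (0.00940).

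Among 7 other measured MMP genes none was called in limma, with 1 higher at an unadjusted p under 0.05. It was the stromelysin gene MMP3, whose product also activates collagenases, at 9.08, 8.91 and 9.09 against 8.49, 8.78 and 8.57 (0.41 ± 0.11, adjusted p = 0.0742); it passed without control replicate 3 (0.39, adjusted p = 0.0495). The gelatinase gene MMP2 was at -0.07 ± 0.10. Among 8 other ADAM genes 1 was called higher, ADAM19, which encodes another membrane-bound sheddase (0.72 ± 0.17, adjusted p = 0.0476 in limma); without control replicate 3 its log2 fold change was 0.91, and without any other single array the call was lost, as it was under median scaling (adjusted p = 0.0522) and with no detection filter (0.125). The sheddase genes ADAM10 (0.26 ± 0.16) and ADAM17 (-0.06 ± 0.10) did not pass. None of 4 other ADAMTS genes was called in limma, with 2 higher at an unadjusted p under 0.05.

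Of 8 other inhibitor genes 1 was called higher, SERPINH1 (0.77 ± 0.14, adjusted p = 0.0189 in limma). Despite its family name it encodes a collagen chaperone and not a protease inhibitor. Leaving out any array other than control replicate 3 ended that call. RECK, a membrane-anchored inhibitor of MMP14 and other metalloproteases, narrowly missed, at 5.65, 5.96 and 5.92 against 5.31, 5.49 and 5.27 (0.49 ± 0.12, adjusted p = 0.0523 in limma). It passed with the replicate number as a block (adjusted p = 0.0388) and without control replicate 3 (0.45, 0.0339). Its signal was dim, and with no background correction its log2 fold change was 0.32 (adjusted p = 0.0663 in limma). The other RECK probe was at 0.89 ± 0.23 and did not pass (adjusted p = 0.0619 in limma). Of 16 other matrix and surface proteases, the serine protease gene HTRA1 was higher (0.53 ± 0.10) and the neprilysin gene MME lower (-0.42 ± 0.10, adjusted p = 0.0492 in limma). Each of these calls held only without control replicate 3 among the 6 omissions. Median scaling also ended that of MME (adjusted p = 0.0574), and the other MME probes were at -0.13, -0.52 and -0.56. The cathepsin gene CTSB was at -0.04 ± 0.11.

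Of 13 measured surface partners of the urokinase receptor and MMP14, none was called by its brightest probe in limma, while 5 were higher and 1 lower at an unadjusted p under 0.05. The integrin subunit gene ITGB1 read 13.36, 13.23 and 13.08 against 12.83, 12.75 and 12.19, a log2 fold change of 0.64 ± 0.18 (adjusted p = 0.0726 in limma). With the replicate number as a block it passed (0.0256), as did ITGB3 (0.59, adjusted p = 0.0376), and without control replicate 3 both passed (0.44 and 0.39). Of the other ITGB1 probes, 1 passed at 0.52 and 1 did not at 0.12. Of the other ITGB5 probes, 1 passed at 0.51 and 1 did not at 0.53. Without control replicate 3, 5 of the 13 genes were called, and 16.2% of all genes. BSG, the gene of a surface inducer of metalloproteases, was at -0.15 ± 0.10.

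Among 16 AP-1, ETS and related transcription factor genes, FOS was called higher and FOSL1 and RUNX1 lower (limma). FOS, an AP-1 subunit gene, was dim at 6.30, 6.27 and 6.38 against 5.56, 5.54 and 5.57, a log2 fold change of 0.76 ± 0.09 (adjusted p = 0.00485), and kept its call with any single array left out. FOSL1, another AP-1 subunit gene, read 10.71, 10.77 and 10.79 against 11.63, 11.50 and 11.88 (-0.91 ± 0.12, adjusted p = 0.00664). It was not called without mir-22 replicate 1 or 2 (0.0564 and 0.0534). RUNX1 was at -0.67 ± 0.10 at its brightest probe, but at 0.19 and -0.12 at its other probes, and lost its call without mir-22 replicate 1, 2 or 3 (0.0598, 0.0678 and 0.0607). JUN (0.08 ± 0.10) and ETS1 (-0.30 ± 0.10) did not pass. The other ETS1 probe was at 0.15 ± 0.41, and the mean over the ETS1 probes was -0.08.

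**Figure D4:**
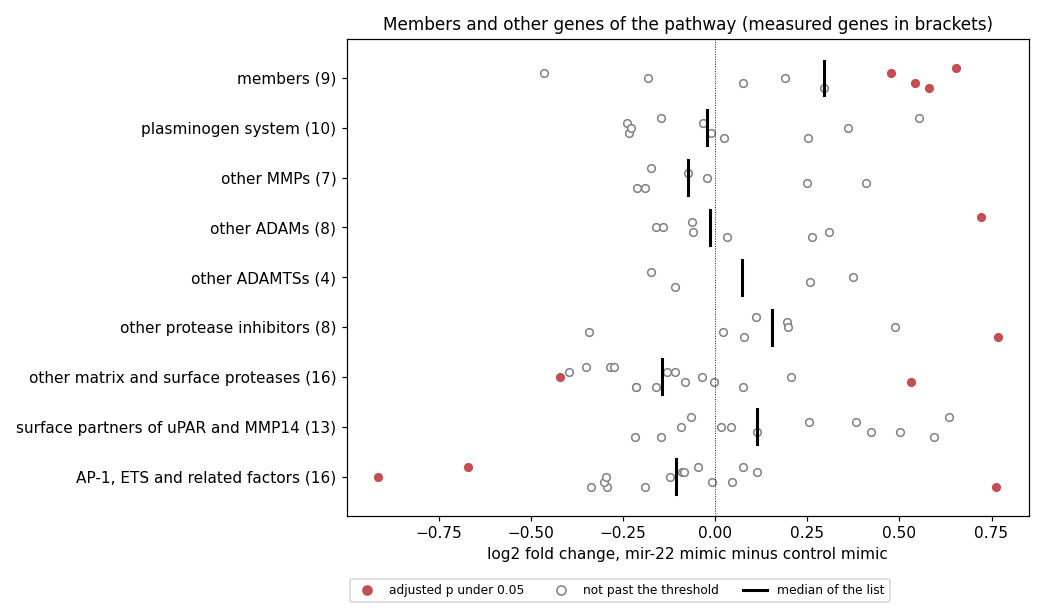
Log2 fold change, mir-22 mimic minus control mimic (horizontal axis), of the brightest probe of each measured gene in the group of 9 (members) and in 8 lists of related genes; filled red points passed an adjusted p of 0.05 and bars mark list medians. The 9 genes have a median of 0.29 and the lists have medians between -0.14 and 0.15, and the lowest point is FOSL1 at -0.91.

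The genes whose brightest probe followed that of PLAU most closely over the 6 arrays were TRNP1 (Pearson r = 0.999), COQ2 (0.998) and RNU6ATAC (0.998). These correlations share the difference between the groups and the same 6 arrays, and 594 of 11132 genes (5.34%) exceeded 0.9. Among the members, TIMP3 followed PLAU at 0.981, ADAM9 at 0.921, ADAMTS1 at 0.916 and PLAUR at 0.900. TIMP1 (0.523), MMP1 (0.037), TIMP2 (-0.613) and MMP14 (-0.715) did not run with it.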

How the data were processed

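Total RNA from 6 ES-2 samples was hybridised to 1-colour Illumina bead arrays. The authors used BeadStudio (per the submitters' processing notes, no version named). The deposited array files hold, per the file headers, the mean bead intensity of each probe on a linear scale, its bead spread and bead number. They also hold a detection score, a deposited fraction from 0 to 1 that rises with intensity, and 1 minus it was taken as the detection p. The deposited value table holds intensity values normalised by the authors, in which mir-22 replicate 1 is unchanged; how is not stated in these sources. All 48803 rows of the array files were joined to the probe names of the value table by their order within the 6 arrays, without ties.

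Of the probes 28098 had 1 gene symbol, 13 several and 20692 none in the platform annotation. Intensities were processed with neqc in limma 3.58.1 (R 4.3.3), that is, background correction, an offset of 16, quantile normalisation and log2. The offset compresses dim probes such as MMP14. Kept were 18732 probes detected on at least 3 of 6 arrays. Testing used lmFit and eBayes of limma, as mir-22 minus control; tests were two-sided and adjusted by Benjamini-Hochberg over all kept probes. A gene is represented by its brightest kept probe. Apart from that choice and the marker sums, which add levels of different probes, probes were compared by their changes, not their levels. The script was tested on simulated data. Member probes rested on 21 to 56 beads per array, with a bead standard error of 1.89% to 17.1% (median 4.13%); the number of arrays limits the precision.

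The members, gene lists and tests were chosen with earlier results of these data known. Named were all members, every list gene that was called and a fixed set of 14 other list genes, of which 1 is not reported here; ITGB3 and ITGB5 were named after their values were seen. The labels number the replicates within each group and state no pairing beyond that. Across kept probes, deviations from the group means correlated at 0.334, 0.135 and 0.434 for like numbers 1, 2 and 3. For unlike numbers they correlated between -0.400 and 0.315, the highest being mir-22 replicate 1 with control replicate 2. Mir-22 replicate 2 correlated better with control replicate 1 (0.181) than with its own number. Whether like numbers are pairs is therefore not settled. Alternatives covered the replicate block, background, normalisation, value table, filter, variance model, probe choice and each array left out.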

Additional observations from a re-analysis of the deposited data

How the results depend on the processing

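The calls of PLAU, ADAM9, ADAMTS1 and TIMP3 needed all 3 mir-22 arrays, and those of ADAM9, ADAMTS1 and TIMP3 also limma's shared variance. With each array left out in turn, which also leaves fewer degrees of freedom, between 0 and 5 of the 9 genes were called, with 0 without mir-22 replicate 1, 2 or 3, where 6 genes still had an unadjusted p under 0.05 in limma. The lists of related genes had 1 to 18 genes called, against 7, and all kept probes 122 to 2659, against 1210, the highest without control replicate 3. Without shared variance 1 of the 9 genes (PLAU, adjusted p = 0.0498), 2 list genes and 325 probes were called. The list count was 11 with the authors' deposited value table, with a trend and robust prior, and when probes of a gene were averaged, where RUNX1 was at -0.20. With no detection filter ADAM9 missed the threshold (adjusted p = 0.068 in limma) and ADAM19 did too (0.125), while PLAUR passed (0.0400). PLAUR also passed with no background correction (0.0467) and with the trend and robust prior (0.0491), but was at 0.16 (0.417) as the mean over its probes. Median scaling ended the calls of ADAM19 (0.0522) and MME (0.0574). Among member probes, the signs that turned were those of PLAUR probe ILMN_1691508 without mir-22 replicate 3 (0.053) or control replicate 3 (0.073) and of MMP1 without control replicate 3 (-0.15). Over the 6 omissions these ranged from -0.13 to 0.073 and from -0.15 to 0.38. Of the list genes named, CTSB turned without control replicate 3 (0.05) and ADAM17 with the mean over its probes (0.04). With the replicate number as a block, 4 of the 9 genes, the same ones, 10 list genes and 1577 probes were called; besides RECK, ITGB1 and ITGB3 it changed no other call of a member or list gene. The causes of these changes were not tested. The dim signals of MMP14, RECK, FOS and ITGB3 limit how well the size of their changes is known.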
